A study of Mus musculus with 12 samples.

Results

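The Bcl2 family sets whether the mitochondrial route of cell death is opened, and 10 of its genes were followed here across 12 single mouse blastomeres. The members were 4 genes counted as anti-apoptotic (Bcl2l10, Mcl1, Bcl2 and Bcl2l1) and 6 counted as pro-apoptotic (the effectors Bax and Bak1 and the BH3-only genes Bad, Bid, Bcl2l11 and Bbc3). These sides were assigned and not tested here. The members were found by gene name, 16 of their probes through the accession in the scanner files and 3 through the name given there. This gave 19 probes among 41174 non-control probes of an Agilent whole mouse genome array, and each member had 1 to 3 probes.

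The cells were the twin blastomeres of 6 embryos of CF-1 mice, an outbred stock, from natural matings and flushed from the oviduct at the 2-cell stage, about 36 h post coitus. Each embryo was split by micromanipulation and each cell was profiled alone, after amplification of its poly(A)+ RNA. Embryos D, I and L belonged to experiment 1 and another embryo D, with G and H, to experiment 2, which makes 6 cells in each, and the labels give no treatment. The labels number the cells of an embryo 1 and 2 without saying what the numbers stand for.

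In mitochondrial apoptosis the effectors Bax and Bak1 form pores in the outer mitochondrial membrane, through which cytochrome c reaches the cytosol. The anti-apoptotic proteins hold the effectors and the BH3-only proteins in check, and the BH3-only proteins, which respond to stress, neutralise the anti-apoptotic ones or activate the effectors. In the mouse, Bcl2l10 (also called Diva or Boo) is known for its expression in the ovary and oocyte, and Mcl1 is needed by the embryo around implantation.

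All values are array signals of 1 cell each, so their number limits the precision. A signal was divided by the array's 75th percentile and given as log2, and a probe counted as detected where at least 50% of its kept spots were well above background. Values below a common floor of -4.12 were set to it, and a probe can be detected on a sensitive array and still lie at the floor. Levels of different probes are not comparable, so a level is compared only between cells, never between genes.

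Detection over the whole array, as a share of its non-control spots, was 22.1% to 41.7% over the cells of experiment 1 and 31.2% to 78.8% over those of experiment 2. The labels name Cy3 for every sample, but the RNA of experiment 1 was read in Cy5 and that of experiment 2 in Cy3, and each experiment had its own slides. Experiment, dye, scan and slide cannot be told apart. The cells carried oocyte and early embryo markers: 7 to 9 of 9 genes were detected in experiment 1 and 8 to 9 in experiment 2. Markers of 3 other tissues stood higher in experiment 1. The summed linear signal of 10 stroma and smooth muscle genes was 11.6 to 83.8 there against 0.574 to 1.07 in experiment 2, that of 10 oviduct epithelium genes 5.74 to 36.2 against 0.574 to 1.50, and that of 9 macrophage and blood genes 6.17 to 256.7 against 0.557 to 1.01. Of these lists, Muc1 was detected in no cell, Ptprc in none of experiment 1 and Csf1r in none of experiment 2. The sum of 10 cumulus and granulosa genes was lower in experiment 1, 1.10 to 2.68 against 2.41 to 4.30, with Has2, Tnfaip6, Inhba and Foxl2 detected in no cell of experiment 1 and Tnfaip6 in none of experiment 2. Their part in the differences between experiments given here was not tested.

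The start regions of 1 guardian and 1 effector are shown, Mcl1 as a guardian gene detected in every cell and Bax as an effector gene detected in 6. They come from RefSeq (GRCm38.p6), cover the 250 bases before 1 annotated start of transcription and mark in capitals each match to the E-box letters CANNTG. The Mcl1 stretch lies inside the span of the gene, which begins upstream of it at 95656944.
Mcl1, chr3:95658471-95658720, plus strand: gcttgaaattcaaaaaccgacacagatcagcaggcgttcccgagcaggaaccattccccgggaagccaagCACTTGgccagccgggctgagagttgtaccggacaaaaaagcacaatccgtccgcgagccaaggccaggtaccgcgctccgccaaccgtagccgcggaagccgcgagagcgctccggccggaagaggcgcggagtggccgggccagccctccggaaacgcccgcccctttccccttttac
Bax, chr7:45466899-45467148, minus strand: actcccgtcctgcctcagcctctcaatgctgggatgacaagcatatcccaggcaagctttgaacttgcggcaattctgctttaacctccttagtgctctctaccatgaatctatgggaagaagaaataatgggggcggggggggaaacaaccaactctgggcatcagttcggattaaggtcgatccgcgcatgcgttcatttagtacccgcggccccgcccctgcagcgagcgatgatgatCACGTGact

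The Mcl1 stretch held 1 such match, CACTTG, and the Bax stretch held 1, the palindrome CACGTG, close to the start. CANNTG reads the same on both strands, so 1 search covers both, and CACGTG is 1 form of it. Windows of 300 bases, which also take in 50 bases after the start, were at hand for 9 members, 15 windows in all, but not for Bcl2l10. CANNTG was in 10 of these 15 windows and in 72.3% of all 32851 windows, and CACGTG was in 2 of them, those of Bax and 1 of Bbc3, against 7.15% of all. TATAAA, searched on both strands, was in none of the 15 and in 13.6% of all. The member windows held a median of 27 CpG dinucleotides, from 1 in a Bcl2l1 window to 44 in that of Bcl2, against 7 over all windows, and 14 of the 15 were above that median. The windows of Mcl1 and Bax held 33 and 19. A match describes letters only.

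Transcripts of Bcl2l10, Mcl1 and Bcl2l1, all counted as anti-apoptotic, were detected in each of the 12 cells by at least 1 probe. Those of Bcl2, also anti-apoptotic, were missed in some cells. Those of the pro-apoptotic genes were detected in part of the cells, from 11 cells for Bcl2l11 and Bbc3 down to 4 for Bad. Over the 19 probes, 3 were well above background on all 12 arrays, and 13 were so on at least 6 arrays and were tested. Over the array 14.2% of probes met the first and 40.6% the second criterion. Without cell 1 of pair D of experiment 1, the cell with the lowest detection, 6 member probes were detected in all remaining cells, the added ones being a second Bcl2l1 probe and 2 Bcl2l11 probes.

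**Figure D1:**
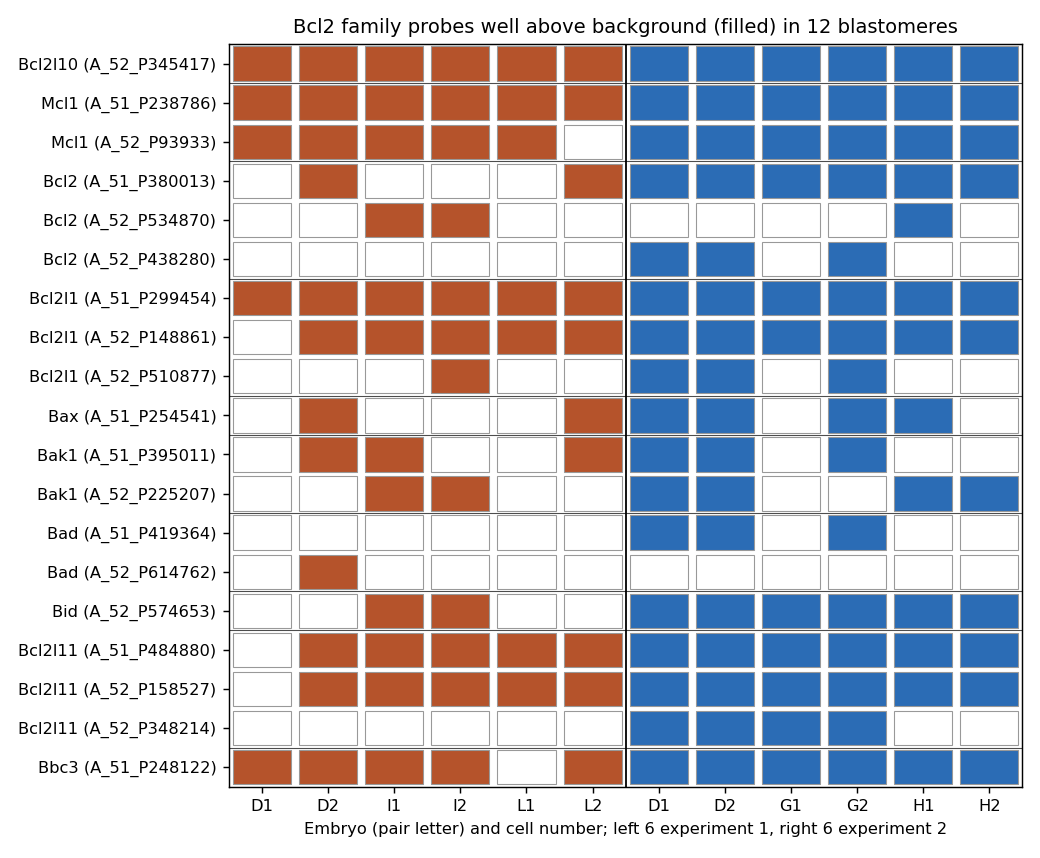
Detection of the 19 probes (rows) in the 12 cells (columns, named by pair letter and cell number; experiment 1 left, experiment 2 right). A filled box marks a probe well above background. The rows of Bcl2l10, 1 probe of Mcl1 and 1 of Bcl2l1 are filled throughout, and the probes of Bad are filled in 3 and 1 cells.

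Sister cells did not always share a detection pattern. In pair D of experiment 2, 17 of 19 probes were detected in both cells and none in 1 cell alone. In pair D of experiment 1, 7 probes were detected in cell 2 alone and 0 in cell 1 alone, and in pair G of experiment 2, 5 were in cell 2 alone and 0 in cell 1 alone. In pair L of experiment 1, 4 were in cell 2 alone and 1 in cell 1 alone. In these 3 embryos the whole array leaned the same way: over all probes, 7608 against 743 were detected in cell 2 alone and in cell 1 alone in pair D of experiment 1, 10947 against 2003 in pair G and 7051 against 2054 in pair L. In pair D of experiment 2 the array leaned to cell 1, with 235 probes in cell 2 alone against 6174 in cell 1 alone, while no member probe differed. In pairs I and H 2 member probes each differed, and the array gave 1789 against 3176 and 1419 against 5128. The part of array-wide detection in the members' pattern was not tested.

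Bcl2l10, on chromosome 9 (75347758 to 75351640, GRCm38.p6), was read by 1 probe (A_52_P345417) and was well above the floor in every cell. In experiment 1 the twins of pair D read 3.45 and 3.62, those of pair I 3.57 and 3.83, and those of pair L 4.38 and 4.47. In experiment 2 the twins of pair D read 2.93 and 2.91, those of pair G 3.18 and 2.60, and those of pair H 3.39 and 3.72. Pair L was highest in both cells, and the cells of pairs D and G of experiment 2 were lowest, with the ranges of the experiments overlapping through pair H. By embryo mean the order was pair L (4.43), pair I (3.70), pair H (3.56) and pair D of experiment 1 (3.53), then pair D (2.92) and pair G (2.89) of experiment 2. Twins differed by 0.02 in pair D of experiment 2 to 0.57 in pair G, so that pairs I, H and D of experiment 1, and likewise pairs D and G of experiment 2, lay closer to each other than twins of 1 embryo can.

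Mcl1, a short-lived guardian protein that binds Bak1 and BH3-only proteins, lies on chromosome 3 (95656944 to 95663179). Its brighter probe (A_51_P238786) was detected in all cells. In experiment 1 the twins of pair D read -0.86 and -0.40, those of pair I 0.21 and -0.65, and those of pair L 0.51 and -0.19. In experiment 2 the twins of pair D read -0.25 and -0.07, those of pair G -0.18 and -1.32, and those of pair H -2.11 and -1.98. Both cells of pair H were the lowest of the 12, and the twins of pair G lay 1.14 log2 units, or 2.20-fold, apart. By embryo mean the order was pair L (0.16), pair D of experiment 2 (-0.16), pair I (-0.22), pair D of experiment 1 (-0.63), pair G (-0.75) and pair H (-2.04), and each neighbouring step but the last was smaller than the twin difference of pair G. The 2 cells of pair H differed by 0.13.

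The dimmer Mcl1 probe (A_52_P93933), matched to the same accession, gave another picture. In experiment 1 it read -3.72 in cell 1 of pair D and lay at the floor in the other 5 cells. In experiment 2 the twins of pair D read -2.99 and -3.31, those of pair G -2.90 and -1.85, and those of pair H -2.79 and -3.31. The 2 experiments did not overlap, and experiment 2 was higher with this probe while the brighter probe was lower there. In pair G the twins differed in opposite ways on the 2 probes: cell 2 was 1.05 higher than cell 1 on the dimmer probe and 1.14 lower on the brighter.

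Bcl2l1, which encodes the guardian Bcl-xL, lies on chromosome 2 (152758732 to 152833803) and was read by 3 probes. The brightest (A_51_P299454) was detected in all cells, with a lowest, median and highest value of -4.12, -2.99 and -1.79 in experiment 1 and -4.12, -3.75 and -2.20 in experiment 2. The ranges overlapped, and twins differed by up to 1.89 log2 units, in pair I, where cell 1 was at the floor and cell 2 at -2.23. The second probe (A_52_P148861), printed as 10 spots on each array, was detected in 11 cells. Cell 2 was higher than cell 1 on it by 0.38, 1.12 and 0.27 in pairs D, I and L of experiment 1 and lower by 0.77, 0.41 and 0.22 in pairs D, G and H of experiment 2. The log2 SD between the replicate spots of an array was 0.10 to 0.44, which covers neither amplification nor variation between cells. Cell 2 of pair D of experiment 2 was at the floor on this probe. The remaining probe (A_52_P510877) was detected in 4 cells.

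Bcl2, the founding guardian of the family, lies on chromosome 1 (106538176 to 106714290) and was near the limit of detection. Its brightest probe (A_51_P380013) was detected in 2 cells of experiment 1 and all 6 of experiment 2, but was above the floor in 3 cells: cell 2 of pair L (-3.50) and both cells of pair D of experiment 2 (-3.31 and -3.03). A second probe (A_52_P534870), also printed 10 times, was above the floor in 1 cell, cell 1 of pair I (-3.29, with a spot SD of 0.10), and was detected in its twin at the floor. The remaining one (A_52_P438280) was above the floor in cell 1 of pair D of experiment 2 alone, at -3.86. The second probe thus placed Bcl2 signal in another cell, while the brightest and the last shared cell 1 of pair D of experiment 2.

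The effectors were detected in 6 cells each by their brightest probes and left the floor in the same cells. Bax, on chromosome 7 (45461695 to 45466903; probe A_51_P254541), was above the floor in 4 cells: cell 2 of pair L (-3.21), both cells of pair D of experiment 2 (-2.72 and -2.91) and cell 2 of pair G (-3.69). Bak1, on chromosome 17 (27019812 to 27028627; probe A_51_P395011), was above the floor in the same 4 cells, at -3.36, -3.43, -3.23 and -3.76 in that order. These cells had 41.7%, 78.8%, 64.3% and 52.8% of spots well above background, and of the other 8 cells only cell 1 of pair H had more than the lowest of these (46.7%). A second Bak1 probe (A_52_P225207) was detected in 6 cells and at the floor in all 12. Spot SDs of the 10 Bax spots were 0.11 to 0.24 log2 units in the 4 cells above the floor.

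Bcl2l11 encodes Bim, a BH3-only protein that binds all guardians, and lies on chromosome 2 (128126038 to 128162547). Its brightest probe (A_51_P484880) read -4.12, -3.51, -4.12, -3.62, -4.11 and -2.57 in the cells of experiment 1, in the order D, I, L with cell 1 first. In experiment 2 the twins of pair D read -1.27 and -2.16, those of pair G -2.38 and -1.98, and those of pair H -4.12 and -3.93. The 4 cells of pairs D and G were the highest of all, and pair H lay among the cells of experiment 1. A second probe (A_52_P158527) was highest in the twins of pair G instead (-2.73 and -2.23), with -3.13 and -3.75 in pair D, and the last (A_52_P348214) was detected in 4 cells, all of pairs D and G of experiment 2.

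Bbc3 encodes Puma, a BH3-only protein induced by p53, and lies on chromosome 7 (16308398 to 16318334; probe A_51_P248122). In experiment 1 its lowest, median and highest values were -4.12, -4.11 and -3.68. In experiment 2 the twins of pair D read -3.12 and -3.10, those of pair G -2.85 and -1.73, and it lay at the floor in both cells of pair H. Pairs D and G of experiment 2 were again above every other cell, with cell 2 of pair G the highest.

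Bid, the BH3-only protein that caspase-8 cleaves to link death receptors to mitochondria, lies on chromosome 6 (120893119 to 120917062; probe A_52_P574653). It was at the floor in all 6 cells of experiment 1 and read -3.77, -3.48, -3.84 and -3.34 in 4 cells of experiment 2, both of pair D, cell 2 of pair G and cell 1 of pair H. Bad, a BH3-only protein silenced by phosphorylation, lies on chromosome 19 (6941861 to 6951905) and was not tested. Its brighter probe (A_51_P419364) was above the floor in the cells of pair D of experiment 2 alone, at -3.08 and -3.45, and the other (A_52_P614762) was detected in 1 cell, at the floor.

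**Figure D2:**
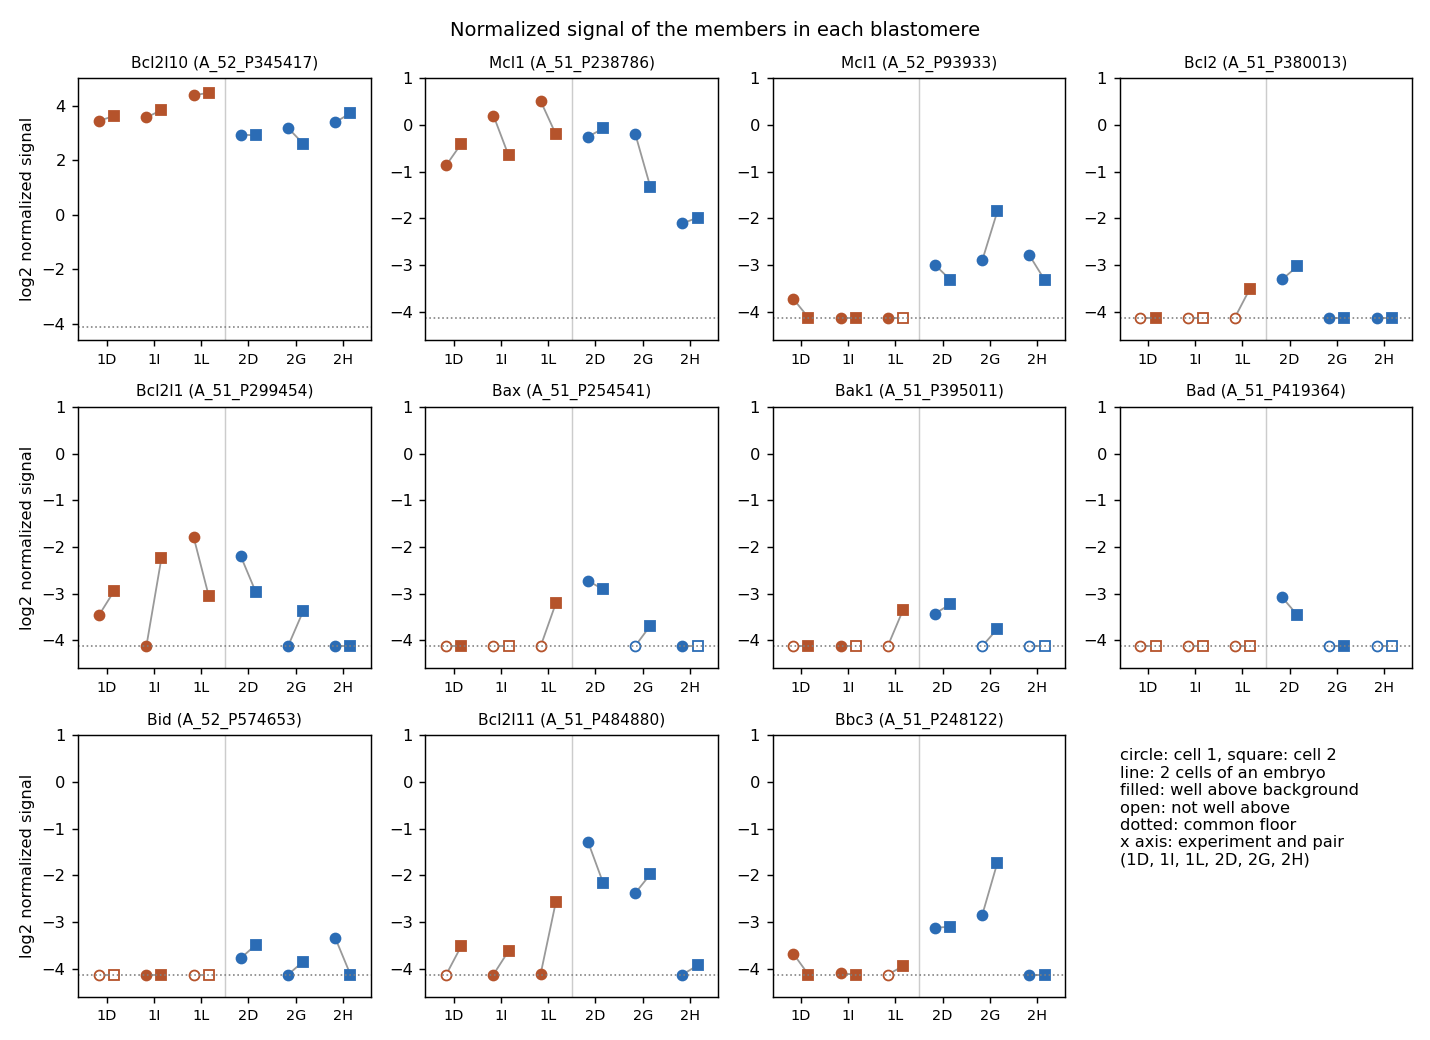
Log2 normalized signal of the brightest probe of each member, and of the dimmer Mcl1 probe, in each cell (x axis: experiment number and pair letter; y axis: log2 units, with a separate scale for Bcl2l10). Lines join twins, filled marks are well above background and the dotted line is the floor at -4.12. The dimmer Mcl1 probe separates the experiments, and Bax and Bak1 leave the floor in the same 4 cells.

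Whether members differed between the experiments was asked with limma over all 16712 tested probes, with embryo as a random block. Of the 9 members with a tested brightest probe, 0 passed an adjusted p of 0.05 and 1, Bcl2l10, had an unadjusted p under it. Over all tested probes 8.11% passed, 3.96% higher and 4.15% lower in experiment 2, and 19.2% had an unadjusted p under 0.05. The median difference over the 9 members was 0.22 log2 units, against 0.19 over all tested probes. That median moved to -0.76 with normexp background correction and to 0.00 with the 75th percentile of all probes.

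For Bcl2l10 the difference, experiment 2 minus experiment 1, was -0.76 ± 0.26 log2 units (SE, 6 cells and 3 embryos per experiment; limma, unadjusted p = 0.0129, adjusted p = 0.106). For the brighter Mcl1 probe it was -0.75 ± 0.46 (limma, adjusted p = 0.427), and for Bcl2l1 -0.56 ± 0.55 (limma, adjusted p = 0.611). These 3 probes kept their sign under all alternatives run, but the second tested Bcl2l1 probe gave 0.21 ± 0.32 (limma, adjusted p = 0.736), so the Bcl2l1 probes differ in sign as those of Mcl1 do. The pro-apoptotic values were above 0 in this setting: 1.04 ± 0.55 for Bcl2l11, 0.84 ± 0.39 for Bbc3, 0.34 ± 0.19 for Bid, 0.36 ± 0.32 for Bax and 0.20 ± 0.24 for Bak1, with adjusted p from 0.269 to 0.675 in limma. All 5 turned negative with normexp, as did Bcl2 (0.22 ± 0.25), and Bax and Bak1 also with a floor for each array. With the 75th percentile of all probes and with quantile normalization, Bax, Bak1 and Bcl2 lay at the floor in all 12 cells, and their difference was 0. Bid was at the floor throughout experiment 1, so its value depends on the floor, and it was 1.53 both with the lower common floor and in the deposited value table.

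The dimmer Mcl1 probe was the only one of the 13 tested member probes to pass, at 1.20 ± 0.28 log2 units, or 2.29-fold, higher in experiment 2 (limma, adjusted p = 0.0233). Its experiments did not overlap, which held for 7.67% of all tested probes. The call was made in 13 of 21 alternatives, with adjusted p from 0.0122 to 0.744. It was lost when either cell 2 of pair D of experiment 1 or cell 1 of pair L was left out (limma, adjusted p = 0.0509 and 0.0782), and at 0.744 with normexp, where the difference was 0.20. Because the 2 Mcl1 probes differ in sign, no direction is given for the gene.

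Embryos within an experiment were compared with limma's F test, in which the spread between twins is the error. No member passed by its brightest probe (adjusted p from 0.0947 for Bbc3 to 0.820 for Bid), while 1.41% of all tested probes did. An unadjusted p under 0.05 was found for 6 of the 9 members, Bbc3, Bcl2, Bcl2l10, Bax, Bcl2l11 and Mcl1, and for 29.8% of all probes. Both twins lay at the common floor in 4 embryos for Bcl2, in 3 each for Bax, Bak1 and Bid, and in 1 each for Bcl2l1 and Bbc3. Their twin difference was 0 there through the floor, so the spread used as error was not measured in those embryos. The number of members that passed changed with single cells left out, and so did that over the whole array. Without cell 1 of pair L of experiment 1, Bak1, Bax, Bcl2 and Bcl2l11 passed (4 members) and so did 23.2% of all tested probes. Without its twin, Bax and Bcl2 passed (2), with 11% of all probes. Without cell 1 or cell 2 of pair G, Bbc3 passed (1), with 6.84% and 8.77% of all probes. With normexp 6 members passed, with 40% of all probes, and with a floor for each array 3 passed, with 26.1%. Without a filter on dim probes Bad, at the common floor in 10 cells, passed (1), with 6.72% of all probes.

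No member passed between cell 2 and cell 1 of an embryo in limma with embryo as a block (0 of 9, unadjusted p from 0.148 to 0.831, adjusted p from 0.674), and 0% of all tested probes passed, with 4.42% at an unadjusted p under 0.05. Bcl2l11 was higher in cell 2 in 5 of 6 embryos, by 0.40 ± 0.29 log2 units (limma, adjusted p = 0.681), and by 0.07 ± 0.18 in 4 of 6 on its second tested probe (limma, adjusted p = 0.904). Bcl2l10 was higher in cell 2 in 4 of 6, by 0.05 ± 0.14 (limma, adjusted p = 0.931). The interaction of cell number with experiment passed for 0% of all probes and 5.27% had an unadjusted p under 0.05. The second Bcl2l1 probe, whose twin differences had opposite signs in the experiments, had the smallest value among member probes, -1.05 ± 0.32 (limma, unadjusted p = 0.0185, adjusted p = 0.913).

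A balance was computed for each cell as the mean of the 4 anti-apoptotic members minus that of the 5 tested pro-apoptotic members, each first centred on its mean over the 12 cells. It says how a cell stands relative to the others and not whether one side outweighs the other, and it carries no test. It rests on the sides assigned to the members, with Bcl2l10 counted as anti-apoptotic. In experiment 1 the twins of pair D had balances of 0.16 and 0.42, those of pair I 0.38 and 0.61, and those of pair L 1.24 and 0.25. In experiment 2 the twins of pair D had balances of -0.47 and -0.44, those of pair G -0.42 and -1.18, and those of pair H -0.40 and -0.16. All cells of experiment 1 were above 0 and all of experiment 2 below it.

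The means were 0.51 ± 0.39 in experiment 1 and -0.51 ± 0.34 in experiment 2 (SD, n = 6 cells of 3 embryos), a difference of -1.02. In this setting the anti-apoptotic mean was 0.23 ± 0.37 and -0.23 ± 0.44, and the pro-apoptotic mean -0.28 ± 0.26 and 0.28 ± 0.54. The values mirror each other because of the centring. Some members met the filter of 6 cells mainly through experiment 2, where they read higher in this setting. Bid, and Bcl2 on the anti-apoptotic side, were detected in 2 cells of experiment 1 and 6 of experiment 2. Bax was detected in 2 and 4. On the anti-apoptotic side the brighter Mcl1 and Bcl2l1 probes were used, and the second tested probes of these genes were higher in experiment 2 (1.20 and 0.21). The tested pro-apoptotic members were lower in experiment 2 with normexp, where the median over all tested probes was -0.76. Relative to that median, Bcl2l11, Bbc3 and Bid stood higher and Bax and Bak1 lower. With normexp the difference in balance was -0.27 and with all tested probes of each gene -0.60. Experiment, dye and slide cannot be told apart here. The stroma, oviduct and macrophage markers given above were also higher in experiment 1, and the cumulus and granulosa markers lower. Whether markers and balance go together from cell to cell was not tested.

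Twins differed in balance by 0.42 ± 0.37 on average (mean absolute difference, SD, n = 6 embryos), and cells of different embryos of 1 experiment by 0.39 ± 0.35 (SD, 24 pairs of cells, which share cells). The order of these 2 values depended on the processing: the twin difference was the smaller one in the other settings for scaling, background and floor and in the deposited table. It was 0.91 against 1.04 with the lower common floor and 0.79 against 1.00 in the deposited value table, a comparison chosen after seeing the data. Pairs L and G were far apart, by 0.99 and 0.76, with cell 2 lower in both. In these 2 embryos the pro-apoptotic mean was higher in cell 2, by 0.68 and 0.52, and the anti-apoptotic mean lower, by 0.31 and 0.24. The other 4 embryos differed by 0.03 to 0.26. Without cell 1 or cell 2 of pair L the mean twin difference was 0.30.

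**Figure D3:**
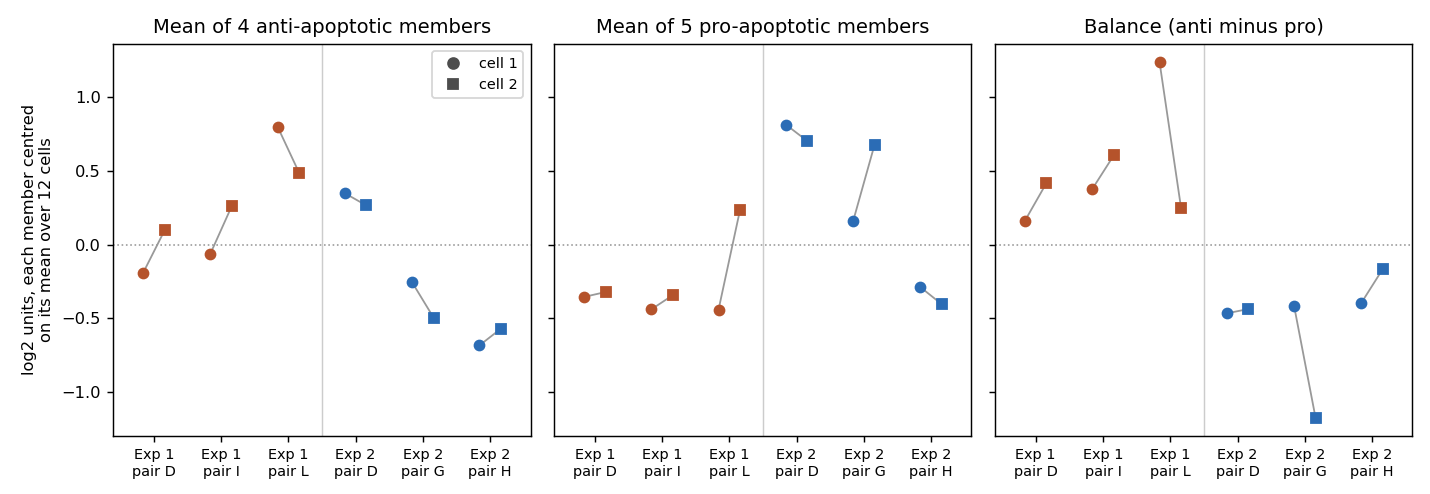
Mean of the anti-apoptotic members, mean of the tested pro-apoptotic members and their difference in each cell (log2 units, each member centred over 12 cells; circles cell 1, squares cell 2, lines join twins). The balance lies between 0.16 and 1.24 in experiment 1 and between -1.18 and -0.16 in experiment 2.

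The pro-apoptotic side went with array-wide detection. All 6 pro-apoptotic members were detected in 3 cells, both of pair D and cell 2 of pair G of experiment 2, and 1 of 6 in cell 1 of pairs D and L of experiment 1. All 4 anti-apoptotic members were detected in 10 cells and 3 in these last 2. Across the 12 cells the pro-apoptotic mean and the share of spots well above background had a correlation of 0.81 (0.54 within experiment 1 and 0.75 within experiment 2, 6 cells each). The anti-apoptotic mean gave 0.09 (0.24 and 0.76), and the balance -0.57 (-0.13 and -0.20). These describe cells that share embryos, slides and the floor, and carry no p. Fewer transcripts in a cell and poorer amplification of its RNA cannot be told apart.

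**Figure D4:**
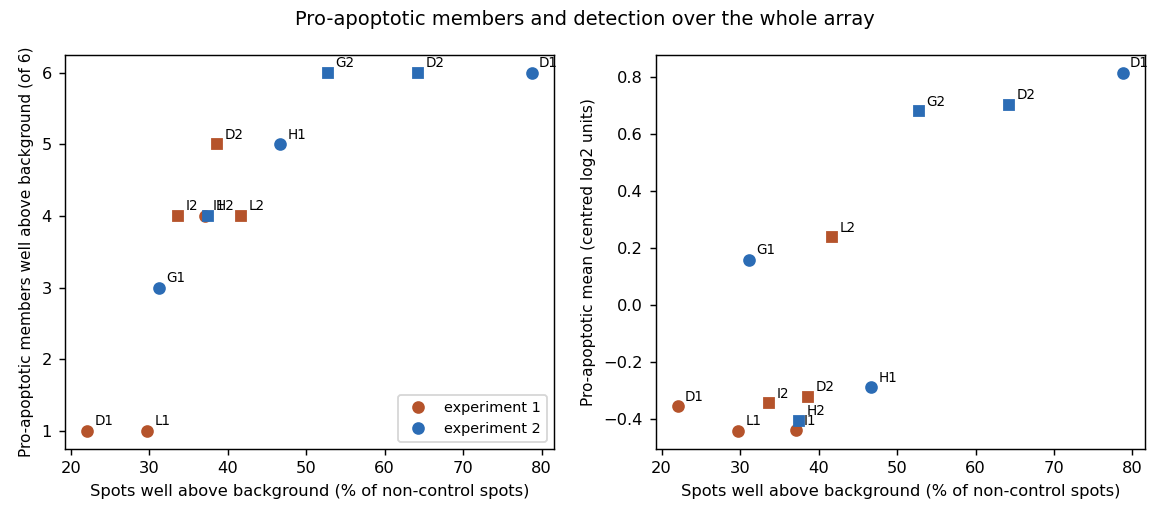
Number of pro-apoptotic members well above background (left, of 6) and their centred mean (right, log2 units) against the percentage of non-control spots well above background; each point is a cell, named by pair and cell number. The 3 cells with all 6 members detected have the 3 highest detection shares, from 52.8% to 78.8%.

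The genes most like each fully detected member were sought among 4673 others measured on all 12 arrays, by Pearson correlation over the 12 cells after centring within experiments. Bcl2l10 was most like Plac8 (0.96), Copz1 (0.94) and Ldhb (0.93). Mcl1 was most like Slc25a14 (0.90), Nfkbia (0.86) and Gpx1 (0.85), and Bcl2l1 was most like Chfr (0.89), Nectin3 (0.89) and Dyrk1b (0.84). The members were less alike among themselves: -0.13 for Bcl2l10 and Mcl1, 0.02 for Bcl2l10 and Bcl2l1, and 0.42 for Mcl1 and Bcl2l1. The points share embryos and array-wide scaling, and each triple is the top of 4673 correlations.

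Of the other Bcl2 family genes, 12 of 15 had a probe and 8 were tested, and 2 passed between experiments, both higher in experiment 2 (limma): Bcl2l13, a mitochondrial family member, by 1.72 ± 0.36 log2 units (adjusted p = 0.0130), and Bnip3, a mitophagy receptor with a BH3-like region, by 1.88 ± 0.44 (adjusted p = 0.0222). Bok did not pass and was lower in experiment 2, at -1.59 ± 0.57 (limma, adjusted p = 0.125). The median difference over the 8 tested genes was 0.39. Among all tested probes the share that passed was 8.11%, and counts from lists this short are given as description only. Of the apoptosome and caspase list, 12 of 15 were tested and 3 passed (limma): Aifm1, the mitochondrial flavoprotein AIF, was higher in experiment 2 by 2.52 ± 0.54 (adjusted p = 0.0141) and Cycs, cytochrome c, by 1.47 ± 0.37 (adjusted p = 0.0298), while Htra2, a mitochondrial protease, was lower, at -1.04 ± 0.23 (adjusted p = 0.0171). The list's median was 0.04. The other 9 tested genes of the list did not pass.

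Of the 7 inhibitors of apoptosis, all tested, 0 passed in limma and 3 had an unadjusted p under 0.05: Birc3 (1.22 ± 0.36, adjusted p = 0.0585), Cflar (-1.67 ± 0.49, adjusted p = 0.0608) and Birc6 (0.92 ± 0.35, adjusted p = 0.152). Of the 4 tested Cflar probes 2 were higher in experiment 2, and the one given lay at the floor in every cell there. Among all tested probes 8.11% passed and 19.2% had an unadjusted p under 0.05. Of 11 regulators of Mcl1 and Bad proteins, 9 were tested and 1 passed, Ywhaz, a 14-3-3 protein that holds phosphorylated Bad in the cytosol, at -2.76 ± 0.30 (limma, adjusted p = 0.00033). Its second tested probe was at 0.01 ± 0.29 (limma, adjusted p = 0.994), and the other 2 probes of Cycs did not pass either, at 0.68 ± 0.49 and 0.88 ± 0.57. Ywhae, another 14-3-3 gene, was the only gene of the lists that passed between embryos (limma F test, adjusted p = 0.0459), with -0.69 and -1.22 in the cells of pair G against 0.80 and 1.01 in pair D and 0.82 and 0.71 in pair H of experiment 2. It passed in 10 of 26 alternatives, and 1.41% of all tested probes passed between embryos in the main setting. No gene of the 4 lists passed for cell number. These lists carried the same caution as the members: of the 6 calls between experiments, Ywhaz was made in 21 of 22 alternatives, and the others were lost with normexp, with the 75th percentile of all probes, with the lower common floor and with a floor for each array. Cycs and Htra2 were also lost in the deposited value table. Without cell 1 of pair L of experiment 1, Bnip3, Cycs and Htra2 missed the threshold (limma, adjusted p = 0.0548, 0.0977 and 0.0548). Without cell 2 of pair G, Bnip3 and Cycs did (0.0524 and 0.0682), and Cycs did when cell 1 of pair D in experiment 1 was left out (0.0619).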

How the data were processed

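Each deposited scanner file gives intensity per spot, as Agilent's extraction software (version 9.1.3.1, per the header) wrote it for the authors. Background subtraction and detrending are recorded there and no dye normalization is. The authors' value table holds the same intensity divided by 1 constant per array and floored. Here outlier spots were dropped, spots of a probe averaged, and signals divided by the array's 75th percentile over 5858 probes detected (well above background) in all 12 cells. Each array has a lowest detected signal, and the highest of these (0.0574) served as common floor. Probes detected in 6 or more cells entered limma 3.58.1 in R 4.3.3 (Python 3.11.15, numpy 2.4.6 and matplotlib 3.10.9 did the rest). P-values were adjusted by Benjamini-Hochberg over 16712 probes with a threshold of 0.05. Every member was named. Other genes were named where they passed a test, or were up to 3 per list with the smallest p. A gene was represented by its brightest probe. Members and lists were chosen with earlier results of these data known. Cells of an embryo are not independent. The procedure was tested on simulated data to which no floor was applied, so that test does not cover probes at the floor. Alternatives covered scaling, background, floor, filter, probe, block and each cell left out.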

Additional observations from a re-analysis of the deposited data

Results flagged for a closer look

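Of 25 sets of 6 cells checked for a cell far from the others, 7 had one, and chance alone gives about 1 in 20. In 4 of them the other 5 cells of experiment 1 lay at the floor, so that any cell above it stands apart: Mcl1 (A_52_P93933) in cell 1 of pair D at -3.72, and Bcl2 (A_51_P380013) at -3.50, Bax at -3.21 and Bak1 at -3.36, all in cell 2 of pair L. In experiment 2, cell 2 of pair G stood apart on the dimmer Mcl1 probe at -1.85 and in the balance at -1.18, and cell 2 of pair D stood apart on the second Bcl2l1 probe (A_52_P148861), at the floor of -4.12.

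On that same Bcl2l1 probe, cell 2 was higher than cell 1 in all 3 embryos of experiment 1 and lower in all 3 of experiment 2. The interaction in limma was -1.05 log2 units, with an unadjusted p of 0.0185 and an adjusted p of 0.913.

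The Cy3 channel of experiment 1, which held no sample of the study, was looked at for the 19 member probes on 6 arrays. Of these 114 pairs of probe and array, 1 had a spot well above background: the second Bcl2l1 probe on the array of cell 2 of pair L.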

How the results depend on the processing

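The number of members called between experiments was 0 in all alternatives but 1, that of any tested probe, where it was 1 (Mcl1). Over the array, calls ran from 172 of 16712 probes with the 75th percentile of all probes to 1742 with quantile normalization. They were 1336 of 5858 among probes well above background on all arrays. With so few members, a count of 0 is given as description only. The number called between embryos was 0, and 6 with normexp (40% of all probes passed), 3 with a floor for each array (26.1%), 1 without a filter on dim probes (Bad; 6.72%) and 0 to 4 with each cell left out in turn. The balance difference of -1.02 between experiments was -0.76 after quantile normalization, -0.27 with normexp, -0.60 with all tested probes, and -1.09 to -0.87 with each cell left out. The twin difference of 0.42 was 0.91 with the lower common floor, 0.79 in the deposited value table, and 0.30 to 0.49 with each cell left out. The count of probes detected in every cell was 3 to 6 with each cell left out, an alternative chosen after seeing the data.

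The difference between experiments reversed with normexp for Bcl2 (-0.93), Bax (-0.92), Bak1 (-1.10), Bid (-0.43), Bcl2l11 (-0.12) and Bbc3 (-0.31). It also reversed with a floor for each array for Bax (-0.19) and Bak1 (-0.61), and for Bak1 with the lower common floor (-0.59) and in the deposited table (-0.21). The median over all tested probes was -0.76 with normexp and -0.11 with a floor for each array. It was 0.09 with the lower common floor and 0.23 in the deposited table. The cause of the reversals was not tested. Cell numbers are only numbers: twin difference profiles of 2 embryos correlated at -0.12 to 0.16, above 0.1 in 3 of 15 combinations. With cell number as a replicate block, 0 members were called between embryos and 0 between experiments, against 0 and 1194 of all 16712 tested probes. Without the embryo block 0 members and 0 of all tested probes were called for cell number.

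Signal over background limits Bcl2, Bax, Bak1, Bid and Bad: their brightest probes were above the floor in 4 cells at most, so differences among the other cells cannot be seen.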
